A study of Rattus norvegicus with 6 samples.

Results

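The complement and coagulation genes of transplanted rat hearts were compared between aged and young donors. The members were the genes to which the deposited table assigns the rat KEGG pathway of complement and coagulation cascades, without the integrin genes (names beginning with Itg). This rule, which uses no measured value, gave 74 of the 22250 genes in the table, after 3 integrins of the 77 pathway genes were left out. Of the 74, 36 belong to complement and 38 to coagulation, the kinin system and fibrinolysis.

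RNA-Seq of poly(A) RNA was made from left ventricular myocardium of donor hearts on day 1 after heterotopic heart transplantation in Sprague-Dawley rats of wild-type genotype. The 3 young donors were 10 weeks old (hearts young 3, young 13 and young 15) and the 3 aged donors were 1 year old (hearts aged 3, aged 4 and aged 7). All 6 hearts, of both groups, had been arrested and cold-stored in University of Wisconsin solution and then grafted into young male recipients, so that every heart had gone through storage and reperfusion, a heterotopic graft does not carry the circulation, and blood cells in the tissue could come from donor or recipient. No heart without transplantation was analysed here. The titles number the hearts within each group without describing the animals further, and p-values measure the spread between these 6 libraries.

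Complement is a chain of plasma proteases. C1q, or lectins, recognise dying cells, antibody or sugars, the attached proteases cleave C4 and C2, and the complex so formed cleaves C3, whose fragments tag surfaces and attract leukocytes before the terminal components form a pore. Coagulation starts when tissue factor meets blood, runs through a chain of proteases to thrombin, and ends with fibrin, which factor XIII crosslinks and plasmin dissolves. Most of the circulating proteins of both cascades are made in the liver, while macrophages, endothelium, fibroblasts and platelets make a smaller set locally, and both cascades are known to be triggered when a stored organ is reperfused.

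The young libraries held 21457509 to 22277905 counted reads and the aged libraries 22508040 to 24560869. Values below are counts per 1000000 reads after scaling of the libraries by the trimmed mean of M values (CPM), always given in the order young 3, 13 and 15, then aged 3, 4 and 7. In a single heart 3 reads, the smallest number taken as a signal, were worth 0.0985 to 0.191 CPM. Several hearts stood apart. The summed CPM of 11 ventricular cardiomyocyte markers was 86811, 95951 and 13901 in the young hearts and 192.6, 8466 and 8699 in the aged hearts, so that these defining markers of the labelled tissue were nearly absent from aged 3 and low in young 15 beside the other 2 young hearts. The summed CPM of 7 macrophage markers ran from 257.9 to 2139 in young and from 3465 to 6708 in aged donor hearts, with young 15 the highest of the young, and that of 10 neutrophil markers from 124.0 to 182.7 and from 405.0 to 1453. Of the macrophage markers 3 of 6 tested were higher in aged donor hearts, and of the neutrophil markers 7 of 9. In whole tissue, fewer cells of a type and less RNA per cell cannot be told apart. Where leaving out aged 3 or young 15 changed a call, this is given beside the gene or with the counts of calls.

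**Figure D1:**
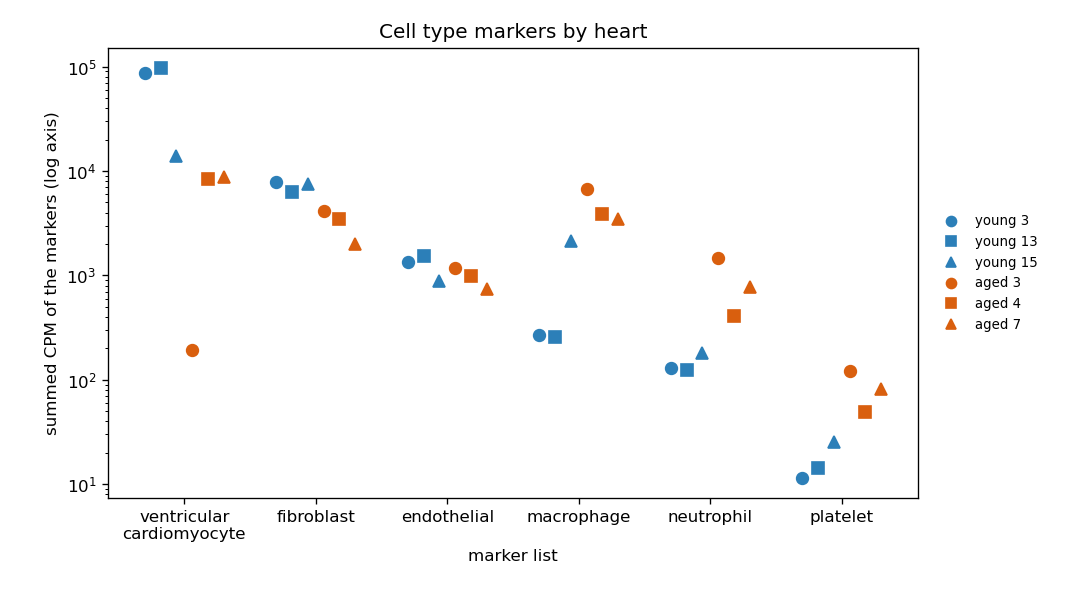
Summed CPM of the markers of 6 cell types (log axis) in each young (blue) and aged (orange) donor heart, 1 point per heart. The ventricular cardiomyocyte sum of aged 3, 192.6 CPM, lies far under the other 5 hearts, and the macrophage sum of young 15, 2139 CPM, lies between those of the other young hearts and the aged hearts.

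Aged donor hearts gave a larger share of their reads to the 74 genes than young donor hearts did, 0.57%, 0.783% and 0.717% against 0.292%, 0.242% and 0.524%. Young 15 had the highest share of the young hearts. These shares weigh members by their reads, so that single members with many reads set much of them, and they do not describe every member. In single genes, young 15 was nearer to the mean of the aged than to that of the other 2 young hearts in 30 of the 45 members tested (66.7%), against 69.7% of all genes tested.

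Of the 74 members, 45 passed edgeR's filter on low counts, 26 of complement and 19 of the coagulation side, and only C4bpb passed through the hearts of 1 group alone, the young. A gene was called higher or lower in aged donor hearts where its fold change lay above 1.5 or under 0.67 and edgeR's quasi-likelihood test gave it an unadjusted p-value under 0.05. By these limits 16 of the 45 differed (35.6% against 32.2% of all 13784 genes tested), 11 higher in aged donor hearts (24.4% against 13.2% of all genes) and 5 lower (11.1% against 19.0% of all genes). The share called in either direction was therefore near that of all genes, with more of the members higher and fewer lower. The median log2 fold change, aged over young, was 0.62 over the 45 members and 0.016 over all genes tested. Scaled by library totals alone, the median of all genes moved to 0.46 and that of the members to 1.06, and 16 members were higher and 3 lower, against 22.8% and 10.5% of all genes.

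After Benjamini-Hochberg adjustment in edgeR, 0 members and 0 genes in all (0.0%) had an adjusted p-value under 0.05, the smallest being 0.0916. The unadjusted p-value in edgeR was under 0.05 in 17 of the 45 members tested and in 4731 of all 13784 genes tested. At the same adjusted limit DESeq2 called 15 of the 45 members, beside 3592 of the 13751 genes to which it gave an adjusted p-value. With quality weights, limma-voom called 32 of the 45 members, beside 8416 of 13784 genes. All 16 calls are thus calls at an unadjusted limit. A two-sided exact permutation test of 3 hearts against 3 cannot give a p-value below 0.1. In 20 of the 45 members the groups held values without overlap (44.4% against 41.6% of all genes), with every aged heart above every young heart in 12 (26.7% against 21.0%) and below in 8 (17.8% against 20.6%).

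**Figure D2:**
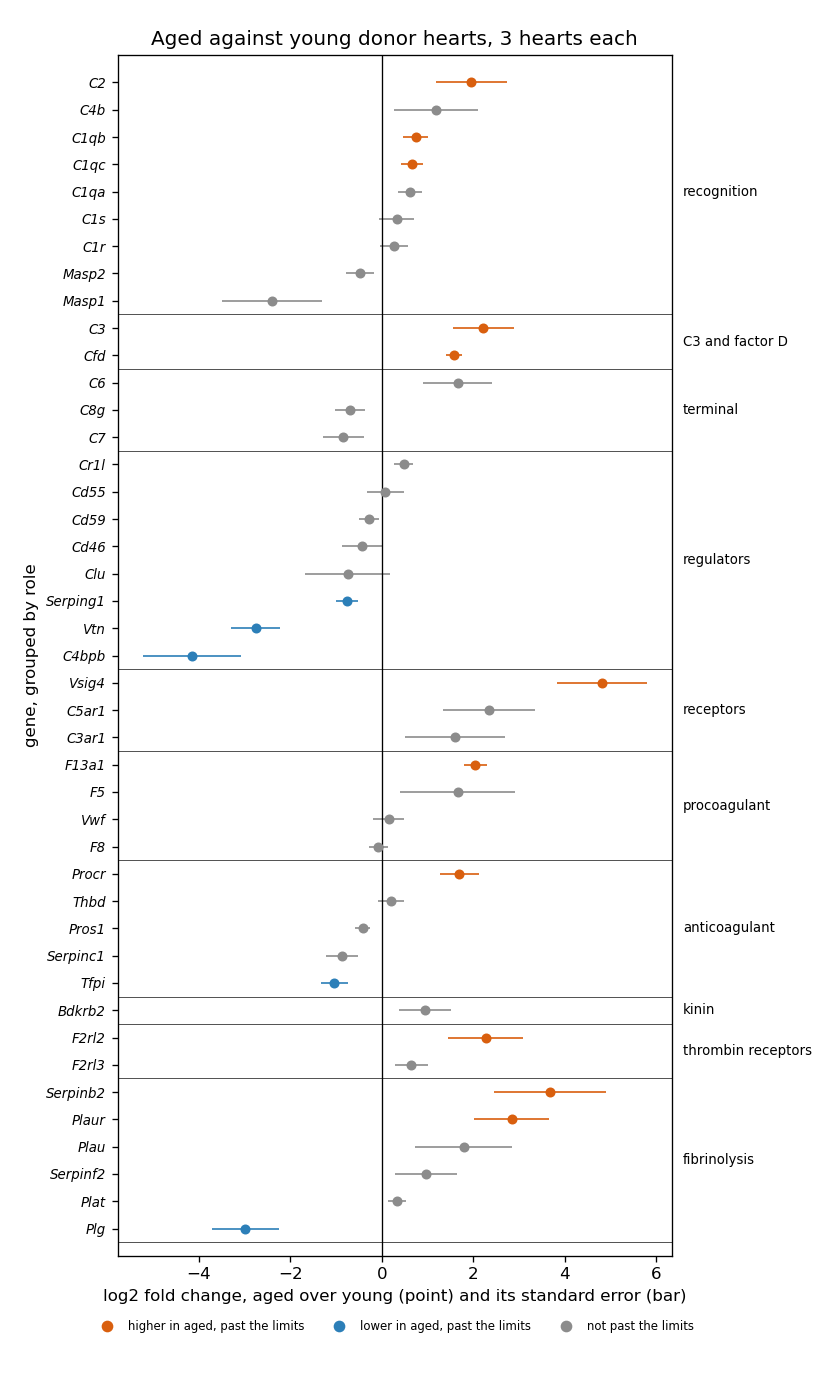
Log2 fold change of 43 of the 45 members tested, aged over young (points), with its standard error (bars), grouped by role. Orange points were higher and blue points lower past the limits, grey points were not past them. The 11 orange points spread over recognition, C3 and factor D, receptors, procoagulant, anticoagulant, thrombin receptor and fibrinolysis genes, and 3 of the 5 blue points are complement regulators.

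Leaving out 1 heart changed the count of calls most for young 15: 33 of 48 members tested were then past the limits (68.8% against 51.1% of all 14109 genes tested), all of the 16 and a further 17. The share of all genes called rose likewise, from 32.2% to 51.1%. In that fit Vsig4, Serpinb2 and A2m passed the filter through aged hearts alone, and C4bpb through young hearts alone. Their calls there give no support. Leaving out young 3, young 13, aged 3, aged 4 or aged 7 gave 11, 12, 12, 12 and 16 calls. The calls of C1qb, C1qc, C2 and F2rl2 were lost without each of young 3, young 13, aged 3 and aged 4, that of Serping1 without young 3, aged 4 or aged 7, and that of Serpinb2 without aged 3 or aged 7. The calls of C3, Cfd, Vtn, F13a1, Procr, Tfpi and Plaur held whichever single heart was left out. Those of Vsig4, Plg and C4bpb held as well. Without young 15, Vsig4 passed the filter through the aged hearts alone, with 1 read each in young 3 and young 13. Without aged 4, Plg passed it through the young hearts alone, with 7 and 2 reads in aged 3 and aged 7. Those fits give the calls no support. For C4bpb no fit gives support, because it passed the filter through the young hearts alone, where it was higher. Without young 15, 36 of 48 members had groups that did not overlap (75.0% against 73.2% of all genes).

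Among the recognition genes of the classical and lectin pathways, 3 of 9 tested were higher in aged donor hearts and 0 were lower. Of all genes tested, 13.2% were higher and 19.0% lower. The 3 chains of C1q, the sensor that starts the classical pathway and is made mainly by macrophages, lie side by side on chromosome 5 of the files' build, Rnor_6.0 (C1qb at chr5:155246447-155252003 and C1qc at chr5:155255005-155258392, minus strand). C1qb (ENSRNOG00000012749) was at 39.3, 31.2 and 47.2 CPM in the young hearts and at 75.8, 74.8 and 46.0 CPM in the aged hearts. Aged 3 and aged 4 were above all young hearts, whereas aged 7 was just under young 15. Its log2 fold change was 0.74 ± 0.27 (SE, edgeR adjusted p = 0.117).

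C1qc (ENSRNOG00000012804) was at 45.5, 39.1 and 48.4 CPM against 78.5, 82.7 and 49.5 CPM, a log2 fold change of 0.66 ± 0.24 (edgeR adjusted p = 0.117). C1qa had the same direction without passing the limits (log2 fold change 0.62 ± 0.26, edgeR unadjusted p = 0.0529), and it passed them without young 15 (0.71). The chains kept their proportions: per kilobase, C1qa over C1qb stayed between 0.847 and 1.16 and C1qc over C1qb between 1.02 and 1.24 in the 6 hearts. Each C1q call rested on a small margin, since it was lost without any 1 of 4 hearts. The summed macrophage markers given above were also higher in aged donor hearts, and their part in this result was not tested.

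C2 (ENSRNOG00000051235, chr20:4542340-4561152, minus strand), the protease that joins C4 to cleave C3, was at 0.544, 1.08 and 4.3 CPM in the young hearts and at 11.2, 7.54 and 4.79 CPM in the aged hearts. All aged hearts were above all young hearts, with young 15 close under aged 7. Its log2 fold change was 1.96 ± 0.78 (edgeR adjusted p = 0.135), and 3.30 without young 15. In the table C2 overlaps a second entry named Cfb on the same strand, and both Cfb entries had 0 reads in every heart, so that a lack of transcripts of factor B, the alternative pathway's counterpart of C2, and reads set aside in counting as shared cannot be told apart.

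The proteases of C1 did not pass the limits. C1r, which had the highest level per kilobase among the recognition genes, was at 163.2, 144.5 and 220.3 CPM against 294.8, 168.9 and 172.1 CPM, with overlapping groups (log2 fold change 0.27 ± 0.31), and C1s, its neighbour on chromosome 4, had a log2 fold change of 0.33 ± 0.38. Aged 3 was the highest heart for both, and without it the values became -0.04 and -0.17. C4b, the target of these proteases, was at 3.27, 3.62 and 24.1 CPM against 44.0, 14.0 and 12.5 CPM. Its log2 fold change was 1.18 ± 0.92, not past the limits, and 2.81 and past them without young 15, and limma-voom called it. It overlaps LOC103689965 on the same strand, whose log2 fold change was -0.59. C4a, the near-identical copy of C4b, had at most 7 reads in a heart, and reads of the copies may have been split between them.

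The lectin pathway proteases had negative fold changes that did not pass the limits. Masp1 was at 88.0, 90.9 and 9.54 CPM in the young hearts and at 1.61, 18.6 and 15.6 CPM in the aged hearts. Young 3 and young 13 were high and young 15 was within the aged range, and the log2 fold change was -2.40 ± 1.09 (edgeR unadjusted p = 0.0675). Without young 15 it was -2.87 and past them. Masp2 had a log2 fold change of -0.48 ± 0.31, which was 0.029 with library totals alone and -0.65 and past the limits without young 15.

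Both tested genes of the alternative pathway and C3 were higher in aged donor hearts, against 13.2% of all genes tested. Cfd, or factor D, the protease that activates factor B (ENSRNOG00000033564, chr7:12634216-12635943, minus strand), was at 7.62, 6.80 and 7.64 CPM in young (mean 7.36 ± 0.478, SD, n = 3) and at 22.9, 21.6 and 21.5 CPM in aged donor hearts (mean 22.0 ± 0.797, SD, n = 3). The spread within each group was small and young 15 was at the level of the other young hearts, unlike in most members. The fold change was 2.99 (log2 1.58 ± 0.18, edgeR adjusted p = 0.0916), and Cfd had the smallest unadjusted p-value of all members, 9.53e-05 in edgeR. It overlaps Arhgap45, a gene on the same strand that was at 20.8, 17.7 and 76.3 CPM against 246.9, 137.2 and 168.5 CPM, and reads of the shared stretch are uncertain. Arhgap45 too was higher in every aged heart than in every young heart, and unlike Cfd it was higher in young 15 than in young 3 and 13. The part of Arhgap45 reads in the values of Cfd was not tested.

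C3 (ENSRNOG00000046834, chr9:9721105-9747167, plus strand), on which all complement pathways converge, was at 2.90, 2.03 and 9.21 CPM in the young hearts and at 31.1, 11.2 and 23.9 CPM in the aged hearts. Every aged heart was above every young heart, with young 15 the nearest. Its fold change was 4.64 (log2 2.22 ± 0.67, edgeR adjusted p = 0.0961), and the log2 value ranged from 1.86 to 3.20 over the fits that left out 1 heart.

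None of the 3 terminal components tested passed the limits. C7, which anchors the pore complex to the membrane and is made by mesenchymal cells, was at 667.4, 417.5 and 250.3 CPM in the young hearts and at 363.2, 191.0 and 193.8 CPM in the aged hearts. The groups overlapped through aged 3, and the log2 fold change was -0.84 ± 0.45 (edgeR unadjusted p = 0.112). It passed the limits without young 15 (-1.08) and without aged 3 (-1.20). The summed CPM of 6 fibroblast markers was 7810, 6253 and 7507 against 4146, 3439 and 2020, with 2 of 6 lower in aged donor hearts, and its part in the values of C7 and of the genes called lower was not tested. C6, its neighbour on chromosome 2, was at 0.381 to 2.15 CPM in young and 1.82 to 6.24 CPM in aged donor hearts (log2 fold change 1.66 ± 0.75, not past the limits). Its value was 2.64 and past them without young 15 and 1.0 without aged 3, and DESeq2 and limma-voom called it. C8g was at 1.69 to 2.66 CPM and 1.25 to 1.46 CPM (log2 fold change -0.69 ± 0.33, not past the limits, and -0.84 and past them without young 15), and it overlaps Fbxw5 on the opposite strand. The other parts of the pore were barely read: C5 had at most 11 reads in a heart and C9 at most 2, while C8a and C8b had 0 in every heart.

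**Figure D3:**
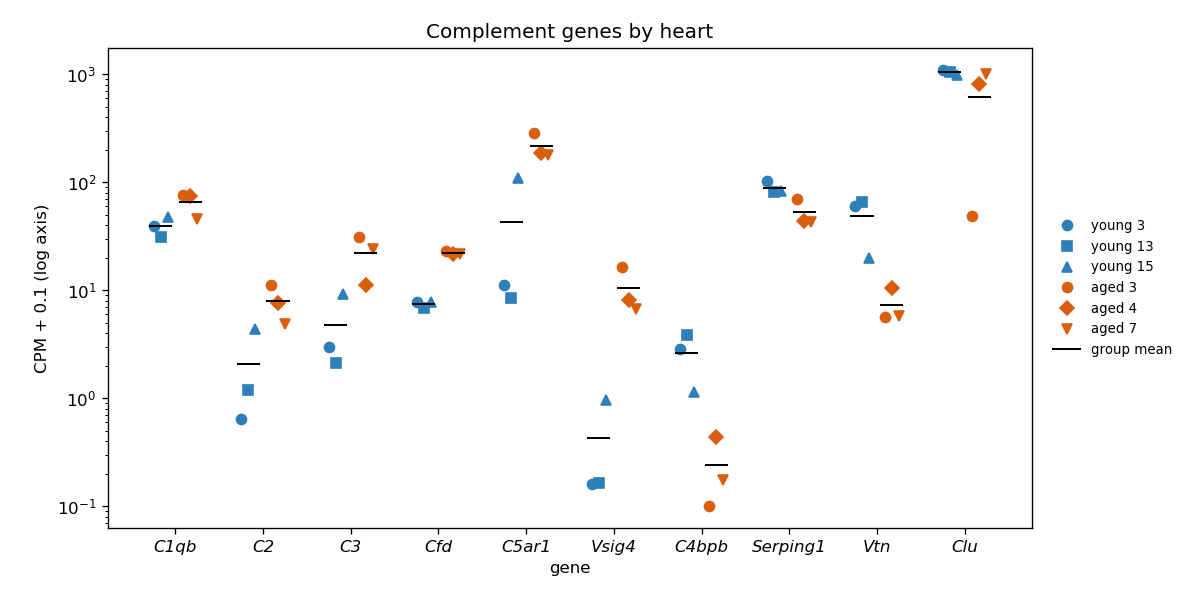
CPM plus 0.1 (log axis) of 10 complement genes in each young (blue) and aged (orange) donor heart, 1 symbol per heart, with the group mean as a bar. Factor D (Cfd) separates the groups with little spread, young 15 lies near the aged donor hearts for C5ar1 at 108.5 CPM, and aged 3 lies far below the others for Clu at 48.4 CPM.

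Complement regulators keep the cascade off host cells. Of 9 tested, 3 were lower in aged donor hearts (against 19.0% of all genes tested) and 0 higher (against 13.2%). Of the 3, C4bpb passed the filter on low counts through the young hearts alone. C4bpb (ENSRNOG00000004125, chr13:47387173-47397890, minus strand), the beta chain of the C4b-binding protein, was at 2.78, 3.75 and 1.03 CPM in the young hearts and at 0, 0.341 and 0.0766 CPM in the aged hearts, the latter being 0, 9 and 2 reads. All young hearts were above all aged hearts, and the log2 fold change was -4.15 ± 1.08 (edgeR adjusted p = 0.0916). C4bpa, which encodes the alpha chain and is its neighbour, had at most 4 reads in a heart.

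Vtn, or vitronectin (ENSRNOG00000010031, chr10:65767053-65771038, plus strand), which blocks pore formation, was at 60.5, 66.1 and 19.9 CPM in the young hearts and at 5.58, 10.3 and 5.71 CPM in the aged hearts. Young 15 was the lowest young heart and still above all aged hearts. The level was 6.76-fold lower in aged donor hearts (log2 fold change -2.76 ± 0.53, edgeR adjusted p = 0.0916). Serping1, the C1 inhibitor (ENSRNOG00000007457, chr3:72161189-72171078, minus strand), was at 102.5, 80.6 and 82.6 CPM against 70.2, 44.0 and 43.1 CPM. The groups did not overlap and the fold change was small (log2 -0.76 ± 0.25, edgeR adjusted p = 0.104). Scaled by library totals alone, Serping1 was no longer past the limits.

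The other 6 regulators tested did not pass the limits. Clu, or clusterin, a chaperone that also binds the terminal complex, had the highest level per kilobase of this group and was at 1100, 1055 and 979.0 CPM in the young hearts and at 48.4, 816.5 and 1002 CPM in the aged hearts. The difference rested on aged 3, the heart with nearly no cardiomyocyte markers. The log2 fold change was -0.75 ± 0.93, and -0.19 without that heart. The membrane regulators had log2 fold changes of -0.27 ± 0.22 for Cd59, -0.44 ± 0.44 for Cd46, 0.081 ± 0.40 for Cd55 and 0.48 ± 0.21 for Cr1l. Scaled by library totals alone, the values of Cd59 and Cd46 changed sign. Every aged heart was above every young heart for Cr1l, which passed the limits with library totals (0.91) and without young 15 (0.63).

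Of the complement receptors, 1 of 3 tested was higher in aged donor hearts (against 13.2% of all genes tested). Vsig4 (ENSRNOG00000038132, chrX:65370851-65400298, minus strand), a receptor for C3 fragments on resident tissue macrophages, was at 0.0605, 0.0636 and 0.867 CPM in young, or 1, 1 and 21 reads, and at 16.2, 8.07 and 6.63 CPM in aged donor hearts. The fitted log2 fold change was 4.82 ± 0.98 (edgeR adjusted p = 0.0916), and 7.29 without young 15, against young levels that in 2 hearts were under the 3 reads taken as a signal. C5ar1, the receptor for the C5 fragment that draws in neutrophils and macrophages, was at 11.1, 8.39 and 108.5 CPM against 287.3, 186.3 and 179.3 CPM. Every aged heart was above every young heart, but the gap between young 15 and the other young hearts was wide, and its log2 fold change of 2.35 ± 1.01 did not pass the limits (edgeR unadjusted p = 0.0573). Without young 15 it was 4.52 and past them. C3ar1, the receptor for the C3 fragment, was at 5.20, 3.24 and 63.4 CPM against 105.5, 63.3 and 49.9 CPM (log2 fold change 1.60 ± 1.10, and 4.14 and past the limits without young 15). The summed macrophage and neutrophil markers given above were higher in every aged heart than in every young heart, and their part in these values was not tested. In young 15 the macrophage sum was 2139 CPM, above 270.7 and 257.9 CPM in young 3 and 13, and the neutrophil sum was 182.7 CPM, against 129.0 and 124.0 CPM. Most of the neutrophil sum of young 3 and 13 was Ncf1, at 123.6 and 116.9 CPM, which was lower in young 15, at 47.7 CPM. Other neutrophil markers were far higher in young 15, with S100a9 at 2.36, 2.1 and 48.2 CPM and Csf3r at 1.39, 2.42 and 46.9 CPM in young 3, 13 and 15. Of the macrophage markers, Marco had 1 read in the 6 hearts together.

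The STAT site is a short motif bound by transcription factors that interferons and some interleukins activate. It was among the motifs looked for in the 250 bases before the start of each gene in the RefSeq promoter table (build GRCr8), whatever the gene's call. The site is described here because it lay before 1 of the receptors and 2 of the regulators called. Written TTCNNNGAA, it reads the same on both strands and was present before 7.67% of 33469 genes and 9 of the 51 members in that table (17.6%). Of these 9 members, 2 were among the 15 not past the limits and 4 among the 23 not tested. Among the members called, the site lay before 2 of the 4 lower genes in the table, C4bpb and Vtn. Of these, C4bpb passed the filter on low counts through the young hearts alone. The site also lay before 1 of the 9 higher genes, Vsig4. The sequences around these sites are shown because these genes had 3 of the 6 largest fold changes in either direction among the members called. Capitals mark the motif, which starts 156, 115 and 12 bases before the gene start in C4bpb (chr13:44683902-44683964, minus strand), Vtn (chr10:63892640-63892702, plus strand) and Vsig4 (chrX:65179709-65179747, minus strand). The window of C4bpb was chosen after its values were seen.
C4bpb: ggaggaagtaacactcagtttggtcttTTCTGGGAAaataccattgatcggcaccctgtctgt
Vtn: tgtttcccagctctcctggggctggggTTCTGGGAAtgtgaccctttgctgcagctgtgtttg
Vsig4: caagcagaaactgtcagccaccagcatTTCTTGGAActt
C4bpb and Vtn carry the same 9 letters, whereas Vsig4 differs inside the motif, and the same motif lies before genes of opposite direction. A match describes these letters and shows no binding.

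On the coagulation side, 5 of 19 genes tested were higher and 2 were lower in aged donor hearts, beside 13.2% and 19.0% of all genes tested. Among the procoagulant factors, 1 of 4 tested was called (against 32.2% of all genes tested). F13a1 (ENSRNOG00000015957, chr17:28504623-28680362, plus strand), the subunit of factor XIII that crosslinks fibrin and is made by macrophages and platelet precursors, was at 43.3, 33.8 and 35.4 CPM in the young hearts and at 198.7, 116.6 and 149.7 CPM in the aged hearts. The groups did not overlap and young 15 was at the level of the other young hearts. The fold change was 4.14 (log2 2.05 ± 0.26, edgeR adjusted p = 0.0916). The platelet markers summed to 11.6 to 25.2 CPM in young and 49.3 to 121.3 CPM in aged donor hearts, with Pf4, which macrophages may also express, as the 1 of 5 tested that was higher. The defining platelet genes Gp1bb and Gp5 had 0 reads in every heart.

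Vwf, the endothelial carrier of factor VIII and bridge for platelets, had the highest level per kilobase of the procoagulant genes, at 315.4, 204.7 and 296.0 CPM against 260.6, 426.6 and 216.4 CPM. The groups overlapped (log2 fold change 0.15 ± 0.34), and the sign turned without young 13 (-0.021) or aged 4 (-0.18). F8, or factor VIII, likewise did not pass the limits (log2 fold change -0.075 ± 0.21, and 0.41 with library totals alone). F5, or factor V, was at 1.51, 0.699 and 25.3 CPM against 48.1, 18.7 and 21.2 CPM. Young 15 was within the aged range, and the log2 fold change of 1.66 ± 1.26 was 4.76 and past the limits without it.

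The factors made by the liver were at or near 0. The fibrinogen chains Fga, Fgb and Fgg had at most 0, 2 and 1 reads in a heart, and F13b, F7, F9 and F11 at most 0, 2, 1 and 3. F2, or prothrombin, had at most 5 reads, F10 at most 14 and F12 at most 18. The hepatocyte markers Alb, Hnf4a and Tat had 0 reads in all 6 hearts, and 5 of the 8 hepatocyte markers in the table had at most 3 reads in each heart. Ttr had 299, 281 and 70 reads in the young hearts and 1, 117 and 129 in the aged hearts, and Cyp2e1 had 181, 114 and 12 reads against 7, 7 and 8.

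The anticoagulants were split, with 1 of 5 tested higher and 1 lower in aged donor hearts (13.2% and 19.0% of all genes tested). Tfpi, the inhibitor of tissue factor on endothelium (ENSRNOG00000005039, chr3:71852744-71893618, minus strand), was at 130.9, 135.8 and 78.2 CPM in the young hearts and at 46.7, 50.5 and 70.7 CPM in the aged hearts. Young 15 lay just above aged 7, and the log2 fold change was -1.04 ± 0.29 (edgeR adjusted p = 0.0923), a 2.05-fold lower level. Scaled by library totals alone, it was not past the limits. Procr, the endothelial receptor of protein C (ENSRNOG00000019330, chr3:151285249-151289595, plus strand), was at 15.2, 5.47 and 13.5 CPM against 26.7, 44.0 and 40.9 CPM. All aged hearts were above all young hearts (log2 fold change 1.70 ± 0.42, edgeR adjusted p = 0.0916), and young 15 was within the young range.

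Thbd, or thrombomodulin, which turns thrombin into an activator of protein C, had the highest level per kilobase among the anticoagulants and did not separate the groups, at 99.2, 121.7 and 58.5 CPM against 100.6, 111.0 and 109.2 CPM (log2 fold change 0.20 ± 0.29). Per kilobase, Tfpi over Thbd was 1.24, 1.05 and 1.26 in the young hearts and 0.438, 0.429 and 0.611 in the aged hearts. Both genes were low in young 15, so that this ratio, chosen after the values were seen and not tested, placed young 15 with the young hearts. Pros1, or protein S, was under the p limit but not the fold limit (log2 fold change -0.42 ± 0.16, edgeR adjusted p = 0.13, and 0.04 on the log2 scale with library totals alone), and Serpinc1, or antithrombin, was not past the limits (-0.87 ± 0.36, and -1.09 and past them without young 15). A2m, an inhibitor of many proteases, was not tested, with at most 4 reads in young and 5 to 23 in aged donor hearts. Without young 15 it was tested and past the limits. That call gives A2m no support, because it passed the filter through aged hearts alone, with 0 reads in young 3 and young 13. Serpind1, Proc, Serpina1 and Serpina5 had at most 4, 1, 1 and 0 reads.

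The kinin system was little expressed. Bdkrb2, the constitutive bradykinin receptor, was the only member of 4 tested, at 3.15, 1.27 and 3.10 CPM against 2.40, 4.13 and 8.05 CPM, with overlapping groups (log2 fold change 0.95 ± 0.57). Its inducible neighbour Bdkrb1 had 0, 0 and 5 reads in young and 9, 13 and 9 reads in aged donor hearts. Kng1, the kininogen gene, had 0 reads in every heart, and Klkb1, plasma kallikrein, had 116 reads in aged 3 and 0 to 13 in the others.

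Of the thrombin receptor family, F2rl2 (ENSRNOG00000018054, chr2:26240385-26245533, plus strand), a co-receptor for thrombin, was higher in aged donor hearts, at 1.63, 0.954 and 7.23 CPM in the young hearts and 25.6, 13.6 and 9.08 CPM in the aged hearts. The groups did not overlap, with young 15 nearest to the aged hearts (log2 fold change 2.28 ± 0.82, edgeR adjusted p = 0.117), and the log2 value was 3.67 without young 15. It overlaps Iqgap2 on the opposite strand, whose log2 fold change was -1.25, and whether counting used strand is not given in the sources used here. F2rl3, a second thrombin receptor, was at 1.08 to 1.57 CPM and 1.42 to 2.46 CPM (log2 fold change 0.65 ± 0.37, not past the limits).

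The fibrinolysis genes, which make plasmin and hold it in check, had 2 of 7 tested higher and 1 lower in aged donor hearts. Plaur (ENSRNOG00000037931, chr1:81328183-81344708, plus strand), the cell surface receptor of the plasminogen activator urokinase, was at 3.99, 4.32 and 29.7 CPM in the young hearts and at 97.9, 88.5 and 87.6 CPM in the aged hearts. The aged hearts were nearly equal and all above young 15, which itself was well above the other young hearts. The fold change was 7.17 (log2 2.84 ± 0.83, edgeR adjusted p = 0.0931), and the log2 value was 4.49 without young 15.

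Serpinb2, an inhibitor of urokinase that stressed macrophages make (ENSRNOG00000002460, chr13:27449934-27463010, plus strand), was at 0, 0 and 0.454 CPM in young, or 0, 0 and 11 reads, and at 2.59, 0.758 and 3.49 CPM in aged donor hearts (log2 fold change 3.68 ± 1.22, edgeR adjusted p = 0.104). The log2 value was 6.03 with limma-voom and 8.73 without that heart, a fit against young hearts at 0 reads that gives no bound. Plg, plasminogen (ENSRNOG00000017223, chr1:48521772-48563776, minus strand), was at 1.15, 2.73 and 2.85 CPM against 0.23, 0.531 and 0.0766 CPM. Every aged heart was below every young heart (log2 fold change -2.99 ± 0.73, edgeR adjusted p = 0.0916), and young 15 was the highest heart. Both genes had low levels in every heart, and with a filter of at least 1 CPM in at least 3 hearts neither was tested.

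Plau, or urokinase, was at 4.42, 4.71 and 66.3 CPM against 108.6, 89.5 and 63.2 CPM (log2 fold change 1.79 ± 1.07, not past the limits, and 4.29 and past them without young 15). Young 15 was within the aged range. Plat, the endothelial plasminogen activator, differed little between hearts, at 118.0, 97.4 and 87.6 CPM against 146.2, 114.5 and 123.8 CPM (log2 fold change 0.34 ± 0.20). Per kilobase, Plau over Plat was 0.0507, 0.0655 and 1.03 against 1.01, 1.06 and 0.692, so that young 15 again lay with the aged hearts. Serpinf2, the inhibitor of plasmin, had a log2 fold change of 0.97 ± 0.68, not past the limits, and 2.03 and past them without young 15. Cpb2, which protects fibrin from plasmin, had at most 2 reads.

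**Figure D4:**
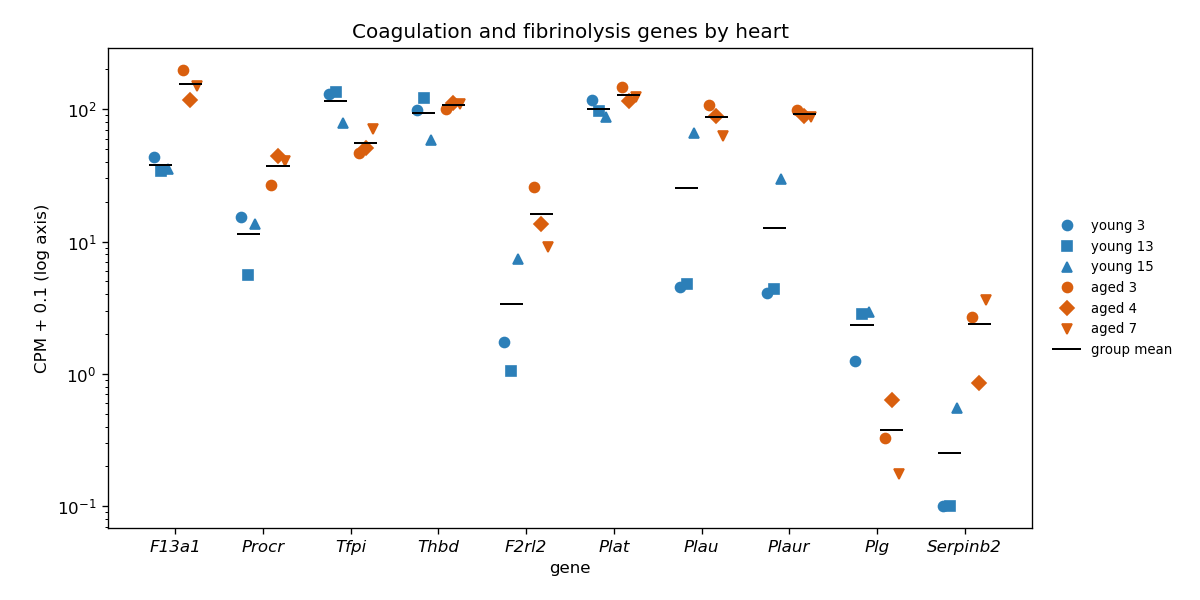
CPM plus 0.1 (log axis) of 10 genes of coagulation and fibrinolysis in each young (blue) and aged (orange) donor heart, 1 symbol per heart, with the group mean as a bar. F13a1, Procr and Plaur separate the groups, whereas young 15 lies with the aged donor hearts for Plau at 66.3 CPM.

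The AP-1 site, the motif of the Fos and Jun factors that injury and growth signals induce, was looked for in the same way, written TGANTCA, which also reads the same on both strands. It lay before 6.34% of the 33469 genes and 8 of the 51 members in the table (15.7%). Of these 8 members, 3 were among the 15 not past the limits and 1 among the 23 not tested. Among the 9 higher members in the table the site lay before 4, Procr, F2rl2, Plaur and Serpinb2, all of them of the coagulation side, and before 0 of the 4 lower members. Their sequences are shown because these genes hold 4 of the 5 calls of higher level on that side, and the windows of F2rl2, Plaur and Serpinb2 were chosen after their values were seen. Capitals mark the motif, which starts 217, 129, 83 and 189 bases before the gene start in Procr (chr3:164714483-164714543), F2rl2 (chr2:28706610-28706670), Plaur (chr1:89181253-89181313) and Serpinb2 (chr13:24055805-24055865), each on the plus strand of GRCr8.
Procr: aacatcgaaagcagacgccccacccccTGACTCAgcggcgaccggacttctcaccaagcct
F2rl2: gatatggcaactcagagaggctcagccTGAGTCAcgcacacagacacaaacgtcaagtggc
Plaur: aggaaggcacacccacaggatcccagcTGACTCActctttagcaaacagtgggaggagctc
Serpinb2: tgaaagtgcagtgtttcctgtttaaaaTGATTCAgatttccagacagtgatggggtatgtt
The hypoxia core ACGTG, looked for on both strands, lay before 16.6% of all genes and 7 of the 51 members, with C3 as the 1 higher member, and the kappa B site before 6.33% of all genes and 2 of the 51 members. None of the 4 motifs lay before Cfd, F13a1, Tfpi or Plg. A match is a description of the letters, and no match says only that they are not in this window.

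**Figure D5:**
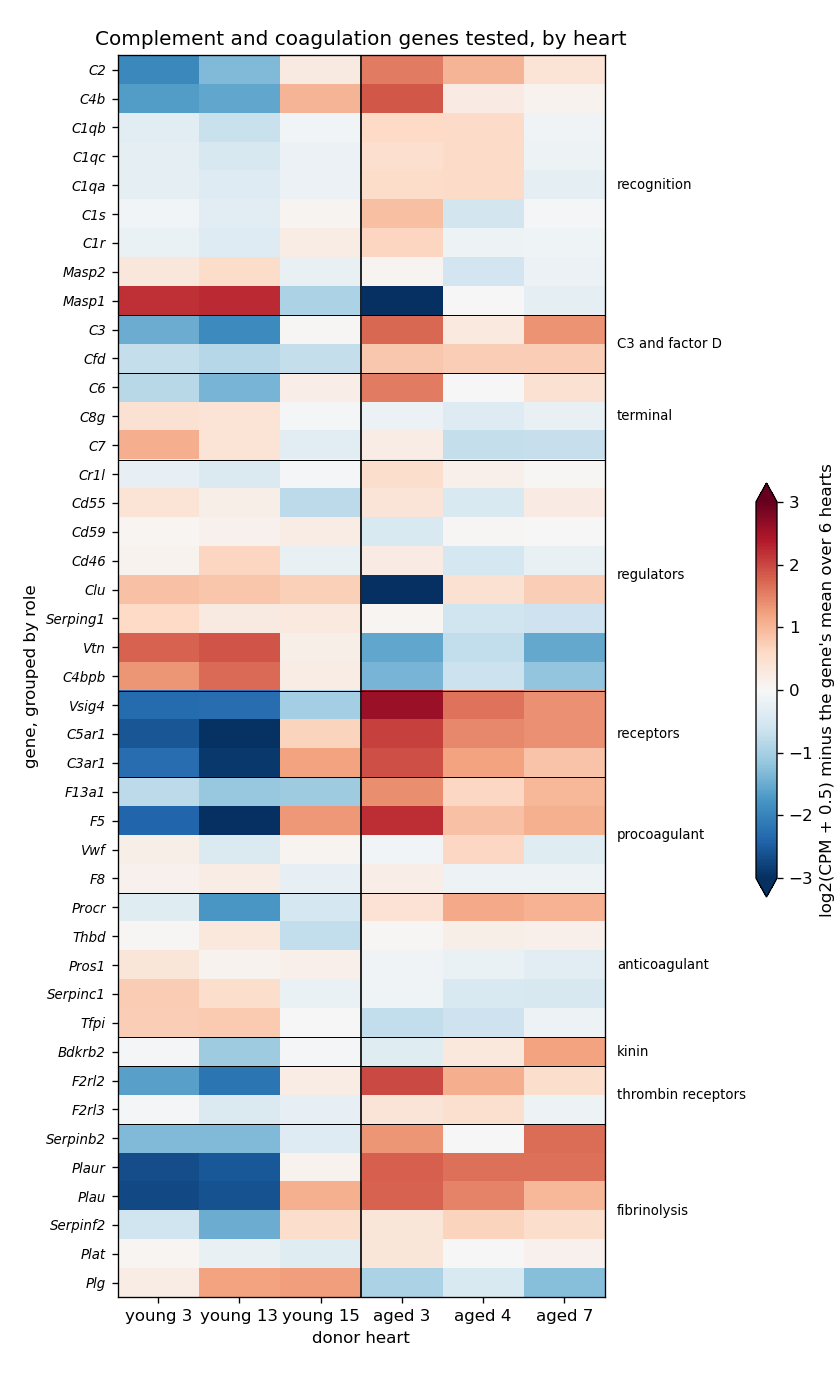
Log2(CPM + 0.5) of 43 of the 45 members tested minus the mean of each gene over the 6 hearts (colour, blue is below and red above the mean, and colours saturate at 3), by heart (columns) and role (rows). Young 3 and young 13 resemble each other, young 15 resembles the aged donor hearts for C5ar1, F5 and Plau but not for Cfd, F13a1 and Procr, and aged 3 is lowest for Masp1 and Clu.

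Some genes of both cascades are in the table without an assignment to the pathway and are no members. F3, or tissue factor, which starts coagulation, was at 16.5, 15.4 and 20.9 CPM in the young hearts and at 49.5, 21.8 and 28.7 CPM in the aged hearts (log2 fold change 0.92 ± 0.34, edgeR adjusted p = 0.118), higher past the limits with groups that did not overlap, a call lost without young 3, young 13 or aged 3. C1rl, a relative of C1r, was also higher (1.46 ± 0.45, edgeR adjusted p = 0.0975), and its call was lost without the same hearts. F2r, the main thrombin receptor, did not pass the limits (-0.53 ± 0.26).

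Of 37 further genes that act on these cascades from outside the pathway, 30 were tested. Of these 30, 6 were higher and 6 lower in aged donor hearts, beside 13.2% and 19.0% of all 13784 genes tested. Higher were Cfp, or properdin, which stabilises the alternative pathway (mean 23.5 CPM in young and 58.5 CPM in aged donor hearts), the ficolin Fcnb (2.72 and 26.5 CPM), the second C5 fragment receptor C5ar2 (3.05 and 10.2 CPM), the protease-activated receptor F2rl1 (6.95 and 16.1 CPM), the protease inhibitor Tfpi2 (4.74 and 26.7 CPM) and the transglutaminase Tgm2 (594.1 and 935.3 CPM). Lower were Serpine2, a thrombin inhibitor (83.2 and 37.9 CPM), Gas6, a vitamin K-dependent relative of protein S (457.0 and 151.2 CPM), Vkorc1, which recycles vitamin K (21.6 and 13.2 CPM), the platelet tetraspanin Tspan9 (242.1 and 133.1 CPM), and Sez6l2 and Susd4, which carry complement control domains (12.5 and 3.52 CPM, and 1.75 and 0.332 CPM). Without young 15, 20 of these genes passed the limits in place of 12, while the share of all genes past them rose from 32.2% to 51.1%. Among the 20 was Colec11, which passed the filter in that fit through young 3 and young 13 alone. The calls of Cfp, Fcnb, C5ar2, Tfpi2, Serpine2, Gas6 and Tspan9 held whichever heart was left out, and those of the other 5 were each lost without 1 or more of the hearts.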

How the data were processed

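The authors deposited 1 table holding, per gene and heart, the raw read count and the FPKM value. The deposited counts are not normalized, and the deposited FPKM values equal the count per kilobase and per 1000000 counted reads in all 444 values of the members, within 0.1%. The submitters' processing notes name HISAT2 2.0.5, StringTie 1.3.3b, featureCounts 1.5.0-p3, DESeq2 1.16.1, GATK 3.7 and build Rnor_6.0, without their roles. The use of strand is not given in the sources used here. Reads of overlapping or near-identical genes are uncertain.

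The counts of all genes were fitted in R 4.3.3 with edgeR 4.0.16 (filterByExpr, TMM, glmQLFit and glmQLFTest, no covariates), with Benjamini-Hochberg adjustment over all genes tested. Standard errors are the fold change (log2) over the root of edgeR's F statistic. CPM are TMM-scaled counts, divided by the gene length of the table for levels between genes. DESeq2 1.42.0 and limma 3.58.1 (voom) were alternatives, with other scalings and filters and each heart left out. Scripts were tested on simulated data. Per-heart values are given for members past the limits with a mean of at least 1 CPM in a group and for the member of each role with the highest level per kilobase. Other members' values were added after they were seen. Some members are counted and are not reported here by name. Members, lists and rules were chosen with earlier results of these data known. Sequences are from RefSeq (GRCr8), in which 51 of the 74 members matched by Entrez gene identifier or, failing that, by symbol. Depth limits values under 3 reads, and intervals of counting were not used because replicates were available. The groups were taken from the sample labels, and no per-heart column was left out.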

Additional observations from a re-analysis of the deposited data

How the results depend on the processing

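Of the 45 fitted fold changes of members, the scaling by DESeq2's size factors and the fit without mitochondrial-genome counts kept every direction, and no member's call was lost under either. The 16 calls of members (11 higher, 5 lower) became 30 (20 and 10) with limma-voom and, with 1 heart left out, 11 to 33 (6 to 23 higher, 4 to 10 lower), the highest without young 15 (33, 23 and 10) and the lowest for higher genes without aged 3 (6). They became 0 at an adjusted p under 0.05 (0 higher, 0 lower) and 10 at 0.10 (6 higher, 4 lower), and 3 in place of 5 were lower with library totals alone. The 12 calls of related genes became 8 to 20 with 1 heart left out, 0 at an adjusted p under 0.05 and 7 at 0.10. The 20 members without overlap became 22 to 36 with 1 heart left out. A lack of overlap is easier to reach with fewer hearts, so this rise gives the 20 no support. Shares of all genes were taken only without young 15 (75.0% of members against 73.2% of all genes). The median of 0.62 ranged from 0.36 without aged 3 to 0.86 without aged 7 with 1 heart left out, and was 0.44 with limma-voom and 1.06 with library totals alone. Signs turned, in genes not past the limits in either fit, with library totals for Masp2 (0.029), Cd46 (0.079), Cd59 (0.16), F8 (0.41) and Pros1 (0.04), with limma-voom for Cd55 (-0.25), without young 13 for F8 (0.023) and Vwf (-0.021), without young 15 for Cd55 (-0.17) and Thbd (-0.0079), without aged 3 for C1r (-0.04), C1s (-0.17) and Cd55 (-0.085), and without aged 4 for Vwf (-0.18). With 1 heart left out, these values ranged from -0.04 to 0.50 for C1r, from -0.17 to 0.61 for C1s, from -0.17 to 0.33 for Cd55, from -0.19 to 0.023 for F8 and from -0.18 to 0.34 for Vwf. The cause was not tested in any of these. No paired analysis was possible because the groups share only the number 3 in their labels, and it names different hearts. With 3 hearts a group, 1 of them (young 15) near the aged hearts in most members, values hold for these 6 libraries only.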

Other observations

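The 3 integrin genes that the rule left out encode the chains of complement receptors on leukocytes. Itgb2, their shared chain, was at 12.3, 10.0 and 165.2 CPM in young 3, 13 and 15 and at 542.3, 372.5 and 282.5 CPM in aged 3, 4 and 7. Every aged heart was above every young heart, and young 15 was far above the other young hearts. Itgam, the alpha chain of complement receptor 3, was at 10.6, 10.7 and 135.9 CPM against 409.0, 238.6 and 199.7 CPM, and Itgax, that of complement receptor 4, at 8.95, 9.47 and 68.7 CPM against 111.2, 85.7 and 80.0 CPM. The log2 fold changes were 2.67 ± 1.14, 2.43 ± 1.08 and 1.67 ± 0.83 and did not pass the limits in edgeR (adjusted p = 0.153, 0.163 and 0.194), whereas all 3 did without young 15 (log2 fold changes 5.20, 4.76 and 3.36).

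Colec11, a lectin that recruits the Masp proteases, was at 28.4, 30.5 and 0.124 CPM in young and at most 0.303 CPM in aged donor hearts. It was high in young 3 and young 13 alone, the same hearts in which Masp1 was high, and it was not tested because too few hearts passed the filter. Among related genes with large fold changes that did not pass the limits, Thbs1, Ptx3 and Selp had log2 fold changes of 3.21 ± 1.44, 2.78 ± 1.52 and 2.40 ± 1.13, with every aged heart above every young heart. Without young 15 they were 6.79, 6.78 and 4.68 and past the limits.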
